A study of Drosophila melanogaster with 16 samples.

Results

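CapaR clock neurons are defined here by their transcripts. They are the cells with at least 1 UMI (unique molecular identifier, 1 per captured transcript) of CapaR, the gene of the Capa peptide receptor, and with at least 5 UMIs in all of the clock genes Clk, per, tim and cwo. This rule took 227 of the 9756 cells that met the clock minimum (2.33%, 95% exact binomial interval 2.04 to 2.65%) and left 9529 other clock cells, out of 23921 single cells in the series. All flies carried Clk856-GAL4 together with the split-DN3-broad driver (R11B03-AD; VT002670-DBD) and UAS-EGFP, so a cell was available only where these drivers labelled it. Equal numbers of males and females were entrained in LD (light:dark cycles), their brains were dissociated, and GFP-positive cells were sorted and put through 10X Chromium. The 10 libraries cover 6 time points, with 1 library for ZT10 and for ZT18 and 2 for every other time point, from ZT02 to ZT22 (ZT, zeitgeber time, counts the hours after lights-on). Each library is named by its time point and the month and day of collection, as in ZT14_0307, and no other treatment, age or genotype separates them.

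CapaR is a G protein-coupled receptor for the Capa peptides, which in Drosophila are made by a few neuroendocrine cells of the ventral nerve cord. The receptor is best known from the principal cells of the Malpighian (renal) tubules, where it acts through phospholipase C, IP3 receptors and calcium, and through nitric oxide and cGMP, to change fluid secretion. Clock neurons of the fly brain fall into lateral and dorsal groups, of which the DN3 are the most numerous, and each runs a transcriptional feedback loop in which CLK and CYC activate per, tim, vri, Pdp1 and cwo, whose products feed back on the loop. CapaR (FBgn0037100) lies on chromosome 3L from 21558974 to 21562181 on the minus strand of dm6, with no exon of a gene on the other strand over it.

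The libraries held 3518519 to 32385361 UMIs in 421 to 5751 cells. A level is the number of a gene's UMIs per 10000 UMIs (TP10K), from UMIs summed over the cells of a group in a library. Of the cell barcodes, 55 occurred in more than 1 library, and 0 of these belonged to CapaR cells. ZT02_1209 stood apart from the other libraries in that Pdf was at 0.09 TP10K in its other clock cells, against 38.9 to 187 TP10K elsewhere. It held only 2 CapaR cells and is in none of the comparisons of CapaR cells, which therefore use 9 libraries.

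Between 2 (ZT02_1209) and 42 (ZT14_0307) CapaR cells came from a library. Their share of the clock cells was lowest in ZT02_1209 at 1.15%, had its next lowest values in ZT06_0805 (1.54%) and ZT14_1209 (1.57%), and was highest in ZT22_0624 at 3.90% (95% exact binomial interval 2.78 to 5.32%). The interval of ZT22_0624 lies above those of ZT02_0307 and ZT06_0805 and overlaps all others, as the plot of shares by library shows. Intervals of this kind cover counting error only. The cells held 404 CapaR UMIs in all. Of the 227 cells 136 had 1 CapaR UMI, 49 had 2, 19 had 3, and the highest count was 8. CapaR cells were also deeper, with a median of 12240 UMIs against 6588 in the other clock cells, and 22.5% of them held over 15000 UMIs against 11.5%. The comparisons were therefore repeated with cells thinned to 1000 UMIs and against other clock cells of like depth. Genes described below whose higher or lower call was then lost are named as such. For Tk, Trh, DAT, SerT, for, Pkg21D, PK2-R1 and PK2-R2 the outcome of these repeats is not given. At the edge of the rule, 5 CapaR cells had a clock sum of exactly 5, and 9 cells with a CapaR UMI had a clock sum of 4 and were left out. In all, 97 cells with a CapaR UMI fell below the clock minimum.

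**Figure D1:**
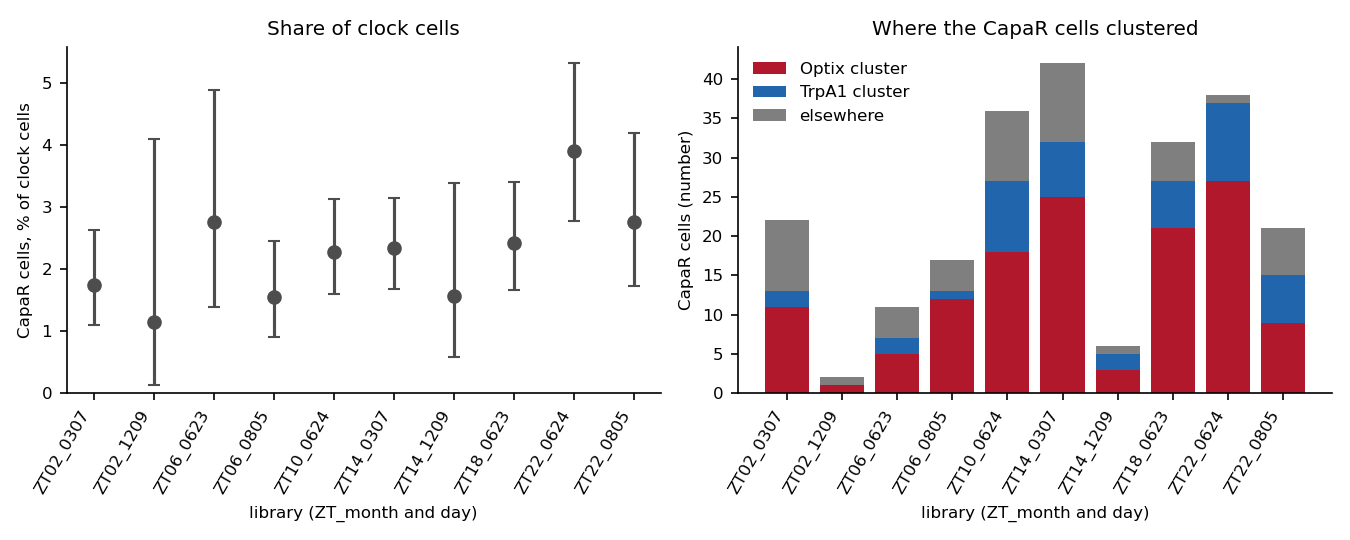
Left, CapaR cells as a percentage of the clock cells of each library, with 95% exact binomial intervals, from 1.15% in ZT02_1209 to 3.90% in ZT22_0624. Right, number of CapaR cells per library, stacked by the cluster they fell in: the Optix cluster (132 cells in all), the TrpA1 cluster (45) or any other cluster (50).

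CapaR cells did not fall in a single cluster. All 23921 cells were clustered without CapaR and without 8 clock genes, and 132 of the 227 CapaR cells (58.1%) fell in a cluster led by the transcription factor genes Sp1, Optix and Six4, called here the Optix cluster. A further 45 (19.8%) fell in a cluster led by TrpA1, a cation channel of warmth and irritant sensing, lov and Wnt4, called here the TrpA1 cluster. The remaining 50 were spread over 11 clusters, 19 of them in 1 cluster and 10 in another. CapaR cells of the Optix cluster came from all 10 libraries and those of the TrpA1 cluster from 9. No fixed marker list gave either cluster a name, so both are called by their leading genes. These leading genes are a description, since clustering used them.

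The Optix cluster held 212 cells, of which 64.2% had a CapaR UMI, at 1.27 TP10K of CapaR over the cluster. In the TrpA1 cluster of 278 cells the share was 16.5%, at 0.228 TP10K. Over all 53 clusters the median share of cells with a CapaR UMI was 0%, and 19 clusters had any. Of the CapaR cells in the Optix cluster 42.4% had a single CapaR UMI, against 82.2% in the TrpA1 cluster and 86.0% elsewhere, at median depths of 12726, 10916 and 12070 UMIs. The clock minimum was passed by 93.9% of the Optix cluster and by 83.8% of the TrpA1 cluster. At a Leiden resolution of 2 or 6 instead of 4 the count of cycling genes in the Optix cluster, given below, was the same.

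Neuronal genes were present in the CapaR cells of every library compared. The summed level of 7 neuron markers (elav, nSyb, Syt1, brp, Syn, Snap25 and cpx) ran from 81.3 to 102 TP10K over the libraries of CapaR cells and from 66.2 to 89.9 TP10K in the other clock cells. The 10 glia markers summed to 0.327 to 0.925 TP10K in CapaR cells and 2.07 to 11.6 TP10K in the other clock cells, with repo and wun2 at 0 in CapaR cells. The 11 photoreceptor markers reached 0.644 TP10K, with 5 of them at 0, and the 7 hemocyte and muscle markers reached 0.0424 TP10K. The 10 Kenyon cell markers summed to 40.4 to 65.6 TP10K in CapaR cells against 28.4 to 53.4 TP10K in the other clock cells. In the Optix cluster they summed to 54.1 to 72.5 TP10K. Of the 10 only ey was at 0 in CapaR cells. In the test described below 1 of the 10 was higher and 4 were lower. This last list also holds Dop1R2 and sNPF, which are described below. The part of other cell types in the differences below was not tested.

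To find the genes that set CapaR cells apart, UMIs were summed per library over CapaR cells and over the other clock cells and compared within libraries with edgeR's quasi-likelihood test, with Benjamini-Hochberg adjustment over the 9513 genes tested. A gene passed at an adjusted p under 0.05 and a change of at least 2-fold. Of the genes tested 16.3% passed, namely 201 higher (2.11%) and 1352 lower (14.2%). Among genes with at least 1 UMI in every sum the balance turned, with 153 higher and 84 lower of 237 in all. Of the lower genes 939 had 3 UMIs or fewer in CapaR cells. The median log2 fold change of all genes was -0.18. Among the 201 higher genes 179 were at least 2-fold higher in the CapaR cells of the Optix cluster, 124 of them only there, 60 were so in those of the TrpA1 cluster and 31 in those elsewhere. Levels by place (Optix cluster, TrpA1 cluster and elsewhere) therefore stand beside the test below, as a description, since the clusters were formed from gene levels. Counts for gene lists below stand against the shares of 2.11% higher and 14.2% lower over all genes tested. The UMI minimum for testing was counted over both groups together, and the other clock cells held 77017069 UMIs against 2732814 in CapaR cells. A gene rare in CapaR cells could thus enter through the other clock cells, which favors lower calls and low list medians. Of the 9513 genes 5954 met the minimum in CapaR cells alone. The size of this effect was not tested. The ranges of the libraries did not overlap for 12.2% of all genes tested, and for 100 of the 201 higher ones.

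Transcription factor genes that mark the Optix cluster were far higher in CapaR cells. Sp1, a zinc finger factor of the Sp family, was at 13.2 ± 3.14 TP10K (SD, n = 9 libraries) in CapaR cells and 0.232 TP10K in the other clock cells of the same libraries, a log2 fold change of 5.79 (SE 0.15, adjusted p = 2.29e-17). Its lowest, median and highest libraries were 8.32, 14.2 and 17.9 TP10K in CapaR cells, and 0.121, 0.223 and 0.827 TP10K in the other clock cells over all 10 libraries. Every CapaR library was above every other one. Optix and Six4, homeodomain factors of the sine oculis family, were higher by 5.78 and 5.54 on the log2 scale, and eya, whose product is a partner of such factors in eye development, by 3.36. Sp1, Optix and Six4 were found in 132, 132 and 133 of the 227 CapaR cells, and Optix stood at 9.49 TP10K in the CapaR cells of the Optix cluster and at 0 in those of the TrpA1 cluster and elsewhere.

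The spalt genes salr (log2 fold change 5.45) and salm (4.93), Dll, the limb homeodomain gene (5.32), the POU factor pdm2 (4.53) and the forkhead genes slp1 (3.59) and slp2 (3.17) were higher as well. Ranges of CapaR and other libraries did not overlap for any of these genes, as for 12.2% of all genes tested. Of the 94 genes tested in the fixed list of transcription factors, 48 met the UMI minimum in CapaR cells alone. In this list 6 of the 94 were higher and 33 lower, with a median log2 fold change of -0.94. Those lower include pros, a homeodomain factor of neural differentiation (-5.34, 11.7 against 129 TP10K), ct (-3.38), bi (-3.28), pdm3 (-2.67) and kn (-2.50). Of the pros UMIs in CapaR cells 39.6% came from 1 cell, and by place pros stood at 2.98 TP10K in the Optix cluster, 0.313 in the TrpA1 cluster and 46.4 elsewhere.

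**Figure D2:**
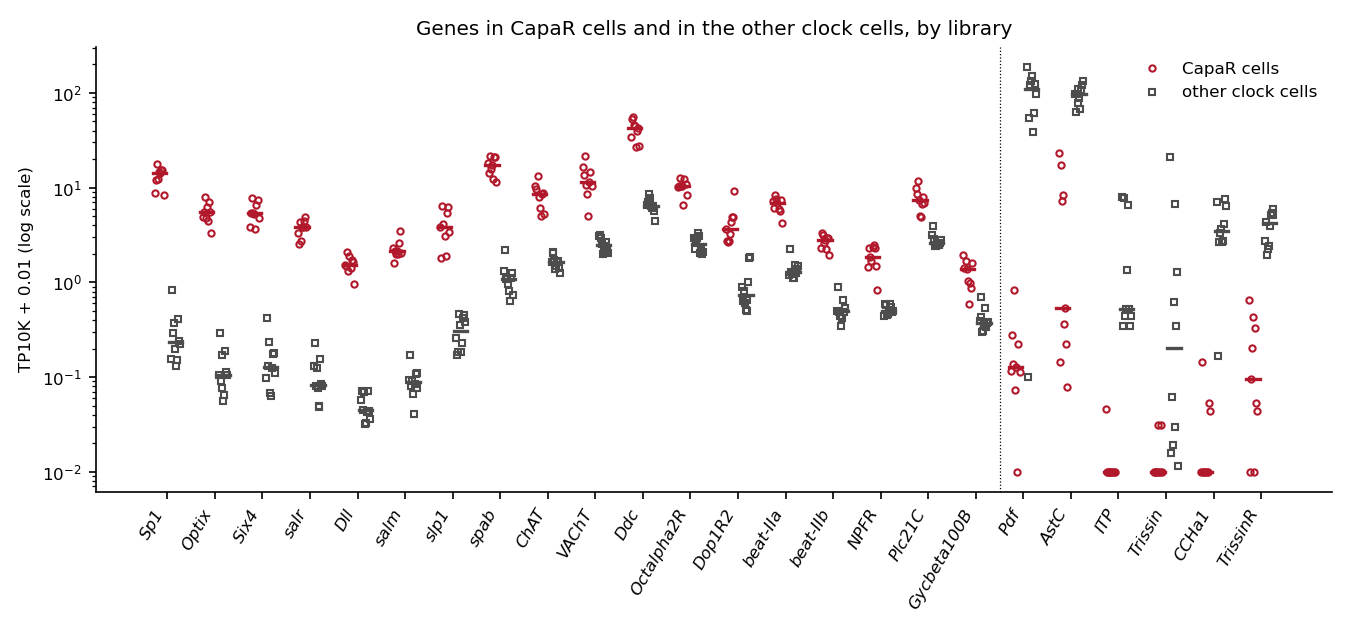
Level of named genes in TP10K (log scale, with 0.01 added) in CapaR cells (circles, 9 libraries) and in the other clock cells (squares, 10 libraries), 1 symbol per library and a bar at the median, with genes higher in CapaR cells left of the dotted line and lower ones right of it. Sp1 ran from 8.32 to 17.9 TP10K in CapaR cells and reached at most 0.827 TP10K in the others, while AstC reached at most 23.4 TP10K in CapaR cells and was at least 62.3 TP10K in the others.

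CapaR cells carried acetylcholine genes or the glutamate transporter, and the place of the cell went with which. The split by place is a description, since these genes were not left out of the clustering. ChAT, which makes acetylcholine, was at 8.34 ± 2.64 TP10K in CapaR cells (lowest 5.04, median 8.47, highest 13.2) and 1.57 TP10K in the other clock cells, a log2 fold change of 2.29 (SE 0.11, edgeR adjusted p = 4.9e-13). VAChT, which loads it into vesicles, was higher by 2.22 and ChT, the choline transporter, by 1.87. No CapaR library overlapped the others for ChAT and VAChT, while ChT in ZT14_1209 (1.41 TP10K) lay within the range of the others. VGlut, the vesicular glutamate transporter, did not pass at 11.8 against 13.1 TP10K (log2 fold change -0.33). Its CapaR libraries ran from 6.63 to 17.2 TP10K and overlapped the others (11.1 to 17.8).

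Cell by cell, 135 of the 227 CapaR cells had UMIs of ChAT or VAChT without VGlut, 69 had VGlut alone, 23 had both and 0 had neither. In the Optix cluster 126 of the 132 CapaR cells had the acetylcholine genes alone and 6 also had VGlut, and all 45 in the TrpA1 cluster had VGlut alone, where 0 of 45 cells allows a share of up to 6.67% with a UMI of the acetylcholine genes. The pooled levels were 13.3 TP10K of ChAT and 0.13 of VGlut in the Optix cluster, against 0 and 27.0 in the TrpA1 cluster. CapaR cells elsewhere were mixed, with 9 of acetylcholine genes alone, 24 of VGlut alone and 17 of both. Among the other clock cells 1493 had acetylcholine genes alone, 2380 VGlut alone, 4117 both and 1539 neither. With every cell thinned to 1000 UMIs, which left no cell out, 61.2% of CapaR cells and 26.5% of the other clock cells had an acetylcholine gene, against 69.6% and 58.9% before thinning. VGlut was then found in 34.4% and 52.5%, against 40.5% and 68.2%. For comparison, VGlut was found in 3.77% of the whole Optix cluster and the acetylcholine genes in 0.360% of the TrpA1 cluster, at median depths of 10918 and 8686 UMIs. These shares too come from clusters formed without leaving out these genes. Gad1, which makes GABA, had no UMI in CapaR cells (0 of 227 cells, which allows a share of up to 1.32%), at least 16.6-fold lower than the 0.184 TP10K of the other clock cells by a floor of 3 UMIs over the group. That call was lost in 3 of 18 alternatives, namely without the library block, with at least 3 CapaR UMIs and with thinned cells. Limits of this kind are on cells with a UMI, not on cells that express the gene, since a droplet captures only part of a cell's transcripts.

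Ddc, the decarboxylase shared by dopamine and serotonin synthesis, was higher in CapaR cells. It stood at 41.2 ± 10.2 TP10K (lowest 26.7, median 43.1, highest 55.7) against 6.56 TP10K, a log2 fold change of 2.54 (SE 0.08, edgeR adjusted p = 5.74e-16), and the ranges did not overlap. It was found in 99.6% of CapaR cells, with 63.8 TP10K in the Optix cluster, 12.3 in the TrpA1 cluster and 8.21 elsewhere. Of the other genes of amine synthesis and transport named here, none but SerT was higher. Vmat, the vesicular amine transporter, was lower (log2 fold change -3.41), with 84.7% of its UMIs from 1 cell, a call lost with a clock minimum of 10 and against other clock cells of like depth. Trh, tryptophan hydroxylase, had no UMI and was at least 8.74-fold lower, and DAT, the dopamine transporter, was lower by 4.25 on the log2 scale. ple, tyrosine hydroxylase, did not pass (0.681 against 0.694 TP10K) and stood at 2.86 TP10K in the CapaR cells of the TrpA1 cluster. SerT, the serotonin transporter, was higher (log2 fold change 1.74) at 0.152 against 0.0598 TP10K. An exon of CG10561 lies over Ddc on the other strand, and whether the counting used the strand is not given in the sources used here. Of the 18 transmitter genes tested 5 were higher and 7 lower, with a median log2 fold change of -0.34.

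**Figure D3:**
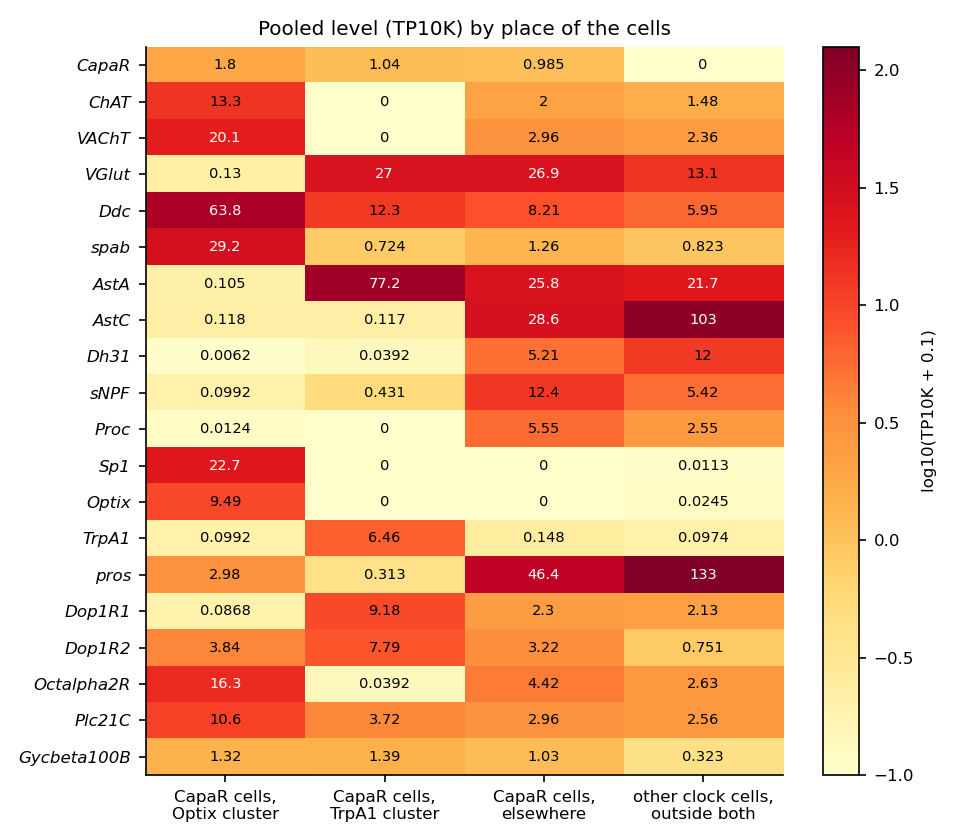
Pooled level in TP10K (numbers in the cells, color on a log10 scale with 0.1 added) of 20 genes in CapaR cells of the Optix cluster, of the TrpA1 cluster and elsewhere, and in the other clock cells outside both clusters. ChAT is at 13.3 TP10K in the first place and 0 in the second, VGlut is at 0.13, 27.0 and 26.9 TP10K in the 3 places, and Gycbeta100B is at 1.32, 1.39 and 1.03 TP10K.

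Only 15 of the 36 neuropeptide genes tested met the UMI minimum in CapaR cells alone. The others entered through UMIs of the other clock cells, and this choice of genes favors a low median. Of the 36 tested 2 were higher and 21 lower, and their median log2 fold change was -4.35. The higher ones were spab, listed among the neuropeptide precursors, and Tk, the tachykinin gene. spab was at 17 ± 3.82 TP10K (lowest 11.6, median 17.2, highest 21.5) against 0.988 TP10K, a log2 fold change of 4.01 (SE 0.09, edgeR adjusted p = 7.49e-19), with no overlap between the libraries. It was found in 184 of 227 CapaR cells and stood at 29.2 TP10K in the Optix cluster, 0.724 in the TrpA1 cluster and 1.26 elsewhere. Tk was low in both groups (0.237 against 0.0601 TP10K, log2 fold change 2.23).

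Pdf, the peptide of the ventral lateral clock neurons, was at 0.202 TP10K in CapaR cells and 108 TP10K in the other clock cells of the same libraries (log2 fold change -9.27). AstC, allatostatin C, which is common in dorsal clock neurons, was at 6.42 against 100 TP10K (log2 fold change -5.08, SE 0.65, edgeR adjusted p = 2.22e-06). Its CapaR libraries ranged from 0.068 to 23.4 TP10K around a median of 0.526, and all of them lay below the lowest of the other clock cells (62.3 TP10K). In ZT06_0805 a single CapaR cell held 409 of the 411 AstC UMIs. ITP and Trissin had 1 and 2 UMIs in CapaR cells, with fitted log2 fold changes of -9.05 and -8.97. At their weakest over the alternatives these were -4.02 and -4.69. CCHa1, a peptide of DN1a neurons, was lower by 8.07 on the log2 scale, Dh31 by 3.69, CNMa by 4.55, NPF by 3.46 and sNPF by 1.41. The sNPF call was lost against other clock cells of like depth and in the fit without the library block. Hug, the gene of pyrokinins, was lower by 4.64, but its log2 fold change was 0.35 against clock cells of like depth and 0.34 with a clock minimum of 10.

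AstA, allatostatin A, was strong in some CapaR cells and near absent in others. Over all of them it did not pass (21.6 against 23.6 TP10K, log2 fold change -0.56, adjusted p = 0.145), and 27.3% of CapaR cells had it. Its pooled level was 77.2 TP10K in the CapaR cells of the TrpA1 cluster, 25.8 elsewhere and 0.105 in the Optix cluster. AstA was the marker fixed for the lateral posterior clock neurons, and on this 1 marker alone the TrpA1 cluster was given no name. The 15 peptide processing genes had a median log2 fold change of -0.13. Capa itself had no UMI in CapaR cells (0 of 227 cells, which allows up to 1.32% with a UMI) and was at 0.0907 TP10K in the other clock cells. Its lower call was lost in the same 3 alternatives as that of Gad1.

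Of 17 amine receptor genes tested 3 were higher, and the median log2 fold change of the list was 0.01. Octalpha2R, an octopamine receptor, was at 10.3 ± 1.87 TP10K (lowest 6.57, median 10.5, highest 12.6) against 2.58 TP10K (log2 fold change 1.91, SE 0.10, edgeR adjusted p = 1.07e-12) and stood at 16.3 TP10K in the Optix cluster and 0.0392 in the TrpA1 cluster. Dop1R2, a dopamine receptor, was at 4.26 ± 2.04 against 0.955 TP10K (log2 fold change 2.09) and was higher in all 3 places, at 3.84, 7.79 and 3.22 TP10K against 0.751. Octbeta3R, another octopamine receptor, was at 2.14 ± 1.12 against 0.528 TP10K (log2 fold change 1.86), with 3.06, 1.16 and 1.13 TP10K by place. The libraries of CapaR cells and of other clock cells did not overlap for any of the 3, as for 100 of the 201 higher genes and 12.2% of all genes tested.

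Among 37 peptide receptors tested 7 were higher and 15 lower, with a median log2 fold change of -0.88. Of the 37, 26 met the UMI minimum in CapaR cells alone. Dh44-R2 (log2 fold change 1.96), NPFR, the receptor of NPF (1.77), SPR, the receptor of sex peptide and of Mip (1.46), and sNPF-R (1.38) were higher, with most of it in the Optix cluster, where they stood at 2.32, 2.91, 2.41 and 3.34 TP10K. TrissinR was at 0.193 TP10K against 3.88 TP10K (log2 fold change -4.23, SE 0.29), and AstC-R2 was lower by 1.93. The NPFR and sNPF-R calls were lost when cells were thinned to 1000 UMIs. Of 32 receptors for fast transmitters 5 were lower, with a median log2 fold change of 0.28.

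Genes listed for the Capa pathway moved in both directions. Beside genes of the route described for the tubule, the list holds Hug and the pyrokinin receptors PK2-R1 and PK2-R2, which are among the lower ones. In the list of the Capa pathway 2 of 23 genes tested were higher and 7 lower, with a median log2 fold change of -0.00093. Over all genes tested the shares were 2.11% higher and 14.2% lower. Plc21C, a phospholipase C, was at 7.66 ± 2.18 against 2.64 TP10K (lowest 4.92, median 7.40, highest 11.7, log2 fold change 1.42, SE 0.11, edgeR adjusted p = 1.26e-09). It stood at 10.6 TP10K in the Optix cluster, 3.72 in the TrpA1 cluster and 2.96 elsewhere, and its call was lost with thinned cells. Gycbeta100B, the beta subunit of the soluble guanylyl cyclase that binds nitric oxide, was at 1.27 ± 0.441 against 0.368 TP10K (log2 fold change 1.75, SE 0.16, adjusted p = 1.25e-08). Unlike most of the genes above it was higher in every place, at 1.32, 1.39 and 1.03 TP10K against 0.323 TP10K in the other clock cells outside both clusters. Its libraries ran from 0.586 to 1.96 TP10K, and the lowest, ZT14_1209, lay within the range of all 10 other libraries (0.292 to 0.686) but above its own library's 0.523 TP10K.

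Gycalpha99B, the alpha subunit (log2 fold change 0.48), norpA (0.94), Itpr, the IP3 receptor (0.70), and Galphaq (0.19) did not reach 2-fold, and Nos, the nitric oxide synthase, was at 0.603 against 0.753 TP10K (adjusted p = 0.166). The lower ones include the cGMP-dependent kinase genes for and Pkg21D, both without a UMI in CapaR cells and at least 17.9-fold and 6.78-fold lower. The pyrokinin receptors were lower too, PK2-R1 with 3 UMIs at a level 7.93-fold lower and PK2-R2 by 2.63 on the log2 scale. Exons of other genes lie over Plc21C and Gycbeta100B on the other strand.

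Of 45 ion channel genes tested 3 were higher and 9 lower, with a median log2 fold change of 0.21. TrpA1 was at 1.31 ± 0.692 against 0.233 TP10K (log2 fold change 2.36) and stood at 6.46 TP10K in the TrpA1 cluster, 0.0992 in the Optix cluster and 0.148 elsewhere. With at least 3 CapaR UMIs its log2 fold change was -1.99, and 8 of the 45 CapaR cells of the TrpA1 cluster had more than 1 CapaR UMI. Cngl, a relative of cyclic nucleotide-gated channels, was at 30.8 against 12.8 TP10K (1.16) and Shab, a potassium channel, at 3.93 against 1.75 TP10K (1.07). The Shab call was lost with thinned cells, with a clock minimum of 10 and against cells of like depth, and that of Cngl with thinned cells.

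Surface molecules moved in both directions. Of 113 tested 11 were higher and 19 lower, with a median log2 fold change of 0.18. Those higher include beat-IIb (log2 fold change 2.43) and beat-IIa (2.29), immunoglobulin proteins of the Beat family, which pairs with Side proteins, rst (2.13), beat-IIIb (1.46) and dpr10 (1.39). beat-IIa was at 6.64 ± 1.25 TP10K (lowest 4.25, median 6.86, highest 8.40) against 1.28 TP10K (SE 0.12, edgeR adjusted p = 1.25e-12), without overlap, and at 10.7, 0.352 and 1.71 TP10K by place. The lower ones include DIP-beta (-3.00) and dpr11 (-2.22), of the Dpr and DIP families that pair with each other, Fas3 (-1.94), DIP-delta (-1.73) and side (-1.47), the last lost against cells of like depth. The beat-IIIb call was lost with thinned cells. CapaR cells elsewhere had dpr11 at 2.58 TP10K, near the 3.09 TP10K of the other clock cells outside both clusters.

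Among genes of no fixed list, twit (log2 fold change 3.46) and CG8861 (3.37, 26.0 against 2.31 TP10K) were higher. Lower ones include CG15550 (-8.90), CG30197 (-8.22) and CG15082, with 3 UMIs in CapaR cells (-8.73). The odorant-binding protein gene Obp19d had no UMI in CapaR cells and was at least 136-fold lower by the floor of 3 UMIs. At its weakest over the alternatives the fitted log2 fold change was -7.31 for CG15082 and -5.13 for Obp19d.

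CapaR cells outside both clusters were led by other genes, here as a description. CARPA stood at 5.11 TP10K against 0.719 in the other clock cells outside both clusters, DIP-theta at 8.14 against 1.79 and CG9650 at 12.4 against 3.07, with Dop1R2 the fourth at 3.22 against 0.751. Sp1, Optix and TrpA1 were at 0, 0 and 0.148 TP10K in them. The clusters that held the most of these cells, 19 and 10, had a CapaR UMI in 2.99% and 3.01% of all their cells. Whether CARPA, DIP-theta and CG9650 are as high in those clusters as a whole was not tested.

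In the cluster that holds most of the CapaR, 4 of the 5 rule genes (all but CapaR) and 3 of 18 other clock genes tested cycled, the latter being vri, Pdp1 and cry. Because the rule asks for clock transcripts, clock genes of CapaR cells are described only, and rhythms were tested in the whole Optix cluster, which was picked for its CapaR level over all libraries but whose cells were clustered without CapaR and without clock genes. UMIs were summed per library, and a 24 h cosine and sine was tested with edgeR's quasi-likelihood test in the 9 libraries with at least 5 of its cells, which leaves out ZT14_1209 with 4. The swing is the distance from trough to peak of the fitted curve, on the log2 scale. Of 5581 genes tested 280 (5.02%) cycled.

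tim had a swing of 5.0 and a fitted peak at ZT16.2 (adjusted p = 4.01e-14). Its level was 0.539 and 1.04 TP10K in the ZT02 libraries and 0.601 and 1.33 in those of ZT06. It was 6.87 in the ZT10 library, 21.7 in that of ZT14, 19.9 in that of ZT18 and 7.82 and 6.72 in those of ZT22. Morning libraries were thus all below the single ZT10 library, and those of ZT14 and ZT18 above every other. per had a swing of 3.84 (peak ZT16.9), vri 3.55 (ZT15.7), Pdp1 2.55 (ZT18.4) and cwo 2.45 (ZT15.0). Clk ran opposite to them, with a swing of 2.73 and a peak at ZT1.8 (adjusted p = 1.54e-05), from 6.01 TP10K in ZT02_0307 to 0.287 in ZT14_0307.

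cry, the blue light receptor, had a swing of 1.85 with a peak at ZT18.5 (adjusted p = 4.66e-04). It was at 0.520 to 0.968 TP10K in the 4 libraries of ZT02 and ZT06 and at 1.61 to 3.19 in the others. The other clock cells are a mixture of types and were taken by their clock transcripts, which the cells of the Optix cluster were not, so the swings of the rule genes in both are not compared. The difference from the other clock cells was tested on CapaR cells, for the genes that the rule did not use, and passed for cry (adjusted p = 4.33e-12) and vri (0.00513) but not for Pdp1 (1). vri did not pass with DESeq2 (adjusted p = 0.0789). Both groups of this test were taken by clock transcripts. The share of all cells that met the clock minimum ran from 21.9% in ZT02_0307 to 64.8% in ZT14_0307. Which cells make up the sums can thus change with the time of day, also for genes outside the rule, and this was not tested.

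**Figure D4:**
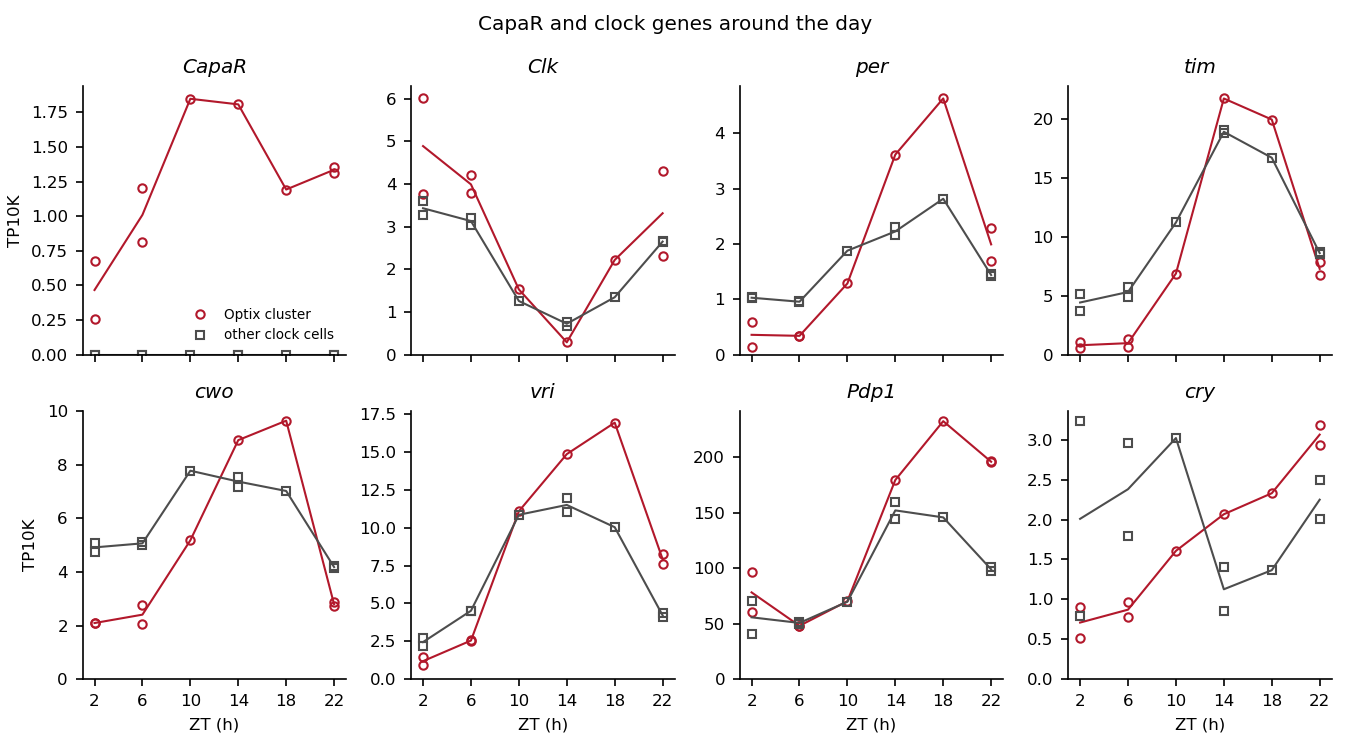
Level in TP10K of CapaR and 7 clock genes against ZT in hours in the Optix cluster (circles, 9 libraries) and in the other clock cells (squares, 10 libraries), 1 symbol per library, with lines through the means of each time point. tim in the Optix cluster rises from 0.539 TP10K in the lowest ZT02 library to 21.7 TP10K at ZT14, and CapaR is at 0 in the other clock cells by the rule.

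CapaR itself was lowest in the morning in the Optix cluster. It was at 0.673 (ZT02_0307) and 0.260 TP10K (ZT02_1209) in the ZT02 libraries and at 1.2 and 0.817 in those of ZT06. The ZT10 library had 1.85, that of ZT14 1.81, that of ZT18 1.19 and those of ZT22 1.32 and 1.36 TP10K, from 288 UMIs in all. The value of ZT02_1209 rests on 2 UMIs. Both ZT02 libraries lay below all others, those of ZT10 and ZT14 lay above, and the ZT18 library lay between the 2 of ZT06. The fitted swing was 1.15 with a peak at ZT14.6 (adjusted p = 0.107 by edgeR), which did not pass. Over the alternatives the swing ran from 0.993 to 1.47 and the adjusted p from 0.0296, without a filter on low counts, to 0.339, without ZT14 replicate 2. The share of the cluster's cells with a CapaR UMI was 16.7 to 57.9% in the libraries of ZT02 and ZT06 and 58.3 to 78.1% in those of the other times.

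Acetylcholine genes cycled in the Optix cluster with a morning peak. ChAT was at 16.5 and 17.9 TP10K in the ZT02 libraries, 20.2 and 17.7 in those of ZT06 and 14.9 in that of ZT10. It was at 8.87 in the ZT14 library, 11.2 in that of ZT18 and 12 and 10.7 in those of ZT22. All 4 libraries of ZT02 and ZT06 were above the 5 later ones. Its swing was 0.96 with a peak at ZT4.7 (adjusted p = 0.00107), that of VAChT 1.0 (ZT3.2, 5.99e-04) and that of ChT 1.16 (ZT2.2, 6.88e-04). The calls of ChAT and VAChT were lost with cells of at most 15000 UMIs and that of ChT without ZT14_0307. Ddc had a swing of 0.69 with a peak at ZT9.0 (adjusted p = 0.0158), from 47.4 TP10K in ZT02_1209 to 96.2 in ZT06_0623, and this call was lost with cells of at most 15000 UMIs and without ZT06_0623 or ZT22_0805. VAChT in CapaR cells passed as well (swing 1.34, adjusted p = 0.0315), but was lost in 12 of 21 alternatives, among them the fit with collection date as a block, while ChAT there did not (0.94, 0.206). In the other clock cells the swing of ChAT was 0.32 and did not pass (adjusted p = 0.662).

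In the Optix cluster 3 of 16 genes of the Capa pathway and 2 of 20 peptide receptors tested cycled, against 5.02% of all genes tested there. Plc21C had a swing of 1.42 with a peak at ZT4.1 (adjusted p = 5.29e-06) and ran from 18.8 and 14.8 TP10K at ZT02 to 6.4 at ZT14. norpA followed it (1.38, ZT1.9), while Itpr peaked at night (2.21, ZT16.6, adjusted p = 7.85e-04). Octbeta3R had a swing of 2.07 with a peak at ZT22.3 (adjusted p = 1.18e-06), with 5.36 and 4.86 TP10K at ZT22 and 1.21 at ZT14, and Dop1R2 1.04 at ZT21.6, a call lost with cells of at most 15000 UMIs. SPR had a swing of 2.02 with a peak at ZT15.9 (adjusted p = 4.69e-05). It was at 4.62 TP10K at ZT14 and 2.80 at ZT18 and between 0.808 and 2.21 in the other libraries. Octalpha2R ranged from 15.1 to 19.5 TP10K over the libraries and did not pass (swing 0.17, adjusted p = 0.913), and neither did spab (swing 0.10, adjusted p = 0.966) or Sp1 (0.25, 0.807). NaCP60E, of the sodium channel family, had a swing of 1.80 at ZT21.2, and amon, the prohormone convertase, 1.54 at ZT2.8.

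Of 92 surface molecules tested in the Optix cluster 20 cycled, and of the 13 amine receptors tested 4 did, against 5.02% of all genes tested there. dpr10 was at 7.84 TP10K at ZT14, 5.27 at ZT18 and 1.69 to 2.88 in the other libraries, a swing of 2.05 with a peak at ZT15.6 (adjusted p = 1.22e-06). beat-IV had a swing of 2.38 (ZT18.5), side-III 2.02 (ZT13.5), dpr12 1.26 (ZT16.5) and kek1 1.18 (ZT1.8). comm, which controls Robo receptors at the midline in development, had a swing of 3.92 with a peak at ZT14.3 (adjusted p = 2.25e-12). It was at 0.404 and 0.260 TP10K at ZT02, 0.687 and 0.605 at ZT06 and 0.731 and 0.791 at ZT22. The ZT10 library had 2.89, that of ZT14 5.20 and that of ZT18 3.25 TP10K, so that the 3 libraries from ZT10 to ZT18 stood above all others. y, the yellow pigment gene, had a swing of 5.51 at ZT17.6 (adjusted p = 1.35e-11), from 0 in ZT06_0623 to 9.79 TP10K at ZT18. The uncharacterized genes CG14082 (4.30, ZT15.7), CG31324 (3.90, ZT16.8) and CG32369 (3.67, ZT0.985) cycled as well.

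**Figure D5:**
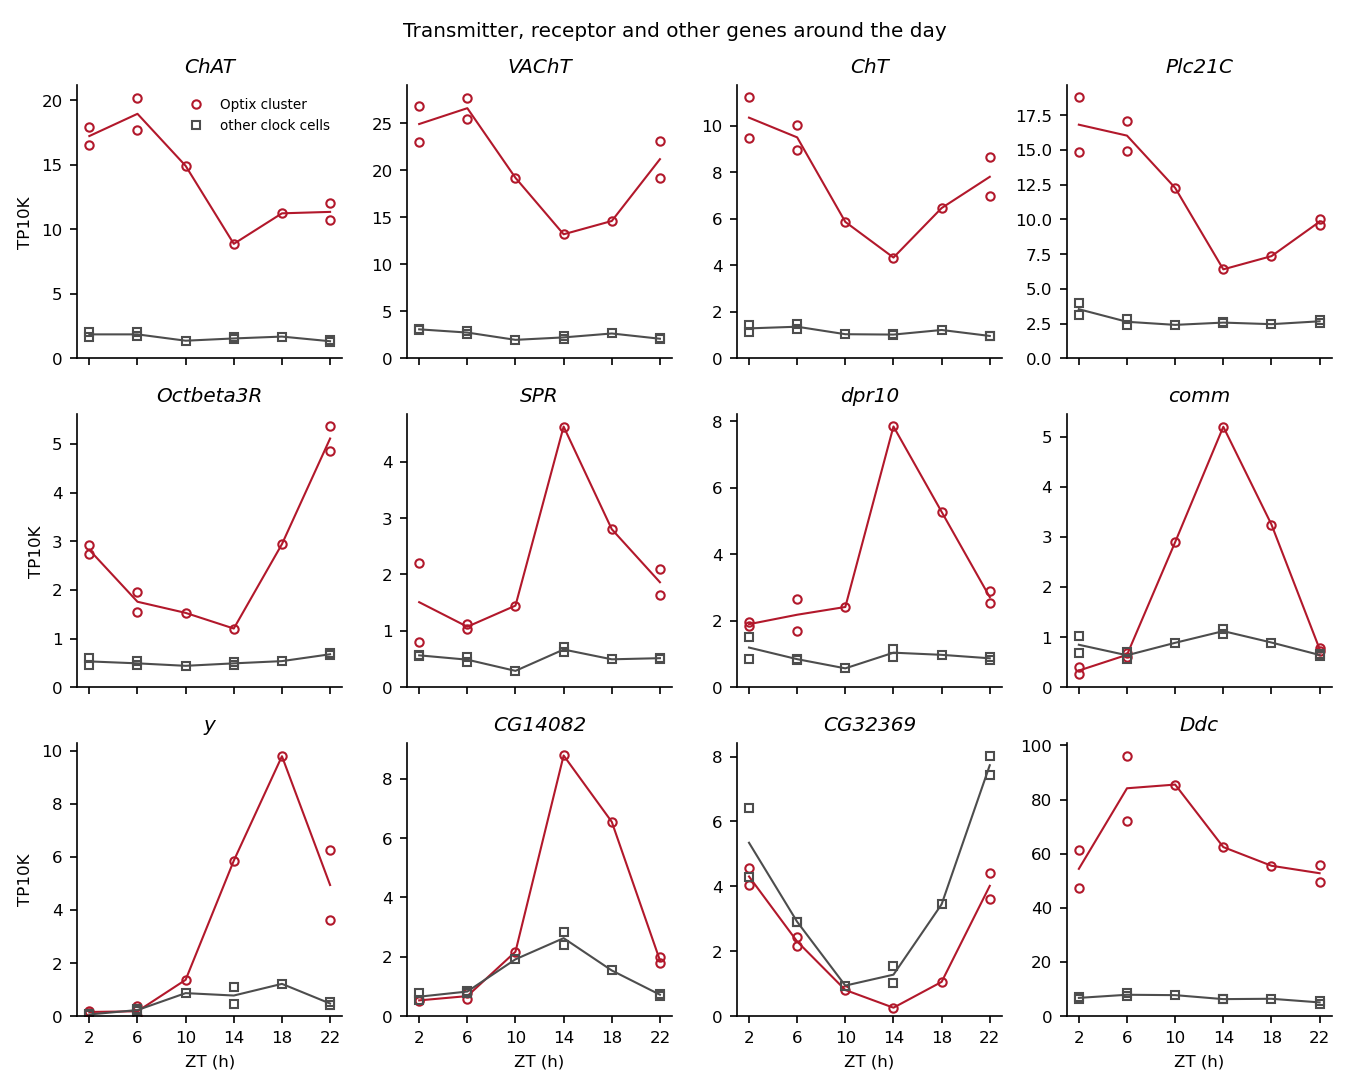
Level in TP10K of 12 genes against ZT in hours in the Optix cluster (circles, 9 libraries) and in the other clock cells (squares, 10 libraries), 1 symbol per library, with lines through the means of each time point. ChAT falls from 20.2 TP10K in the highest ZT06 library to 8.87 TP10K at ZT14, while comm is at 5.20 TP10K at ZT14 and 0.260 TP10K in the lowest ZT02 library.

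Leaving out the 38 cycling genes of the Optix cluster that were at 0 in a library, 70 peaked between ZT0 and ZT4 and 51 between ZT20 and ZT24, against 10 between ZT8 and ZT12. In the other clock cells 133 genes cycled, and 49 genes did so in both. In the CapaR cells themselves 166 of 5954 genes tested (2.79%) cycled, of which 111 also did in the Optix cluster, 66.9% of the former and 39.6% of the latter. The cells of the Optix cluster are most of the CapaR cells, so these counts are not independent of each other.

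For a difference in rhythm between CapaR cells and the other clock cells, 190 of 9513 genes passed (2%), against 37 by DESeq2 and 1 without the library block. comm was that 1 gene, and it passed in all 18 alternatives (adjusted p = 2.29e-13 by edgeR, 2.40e-10 by DESeq2). dpr10 (2.88e-07 by edgeR, 2.36e-04 by DESeq2), SPR (5.12e-05 and 0.00391), cry (4.33e-12 and 0.00199) and y (8.59e-14 and 0.0305) passed with both tools but not without the block. Octbeta3R (0.00180 and 0.143), VAChT (0.00552 and 0.581) and Plc21C (0.0404 and 0.539) passed with edgeR only. ChAT (0.263), Ddc (1) and Dop1R2 (0.383) did not pass with edgeR. These genes were picked out after their values were seen, except as members of the fixed lists. As said for cry and vri, the clock minimum moves with the time of day, and its part in these differences was not tested.

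The genes with the smallest p for this difference, Dh31, CG15537, Vmat, AstC and AstA, rested on few cells and passed neither with DESeq2 nor without the block. Dh31 had 319 UMIs in CapaR cells, 164 of them in 1 cell of ZT10_0624, and Vmat had 50 in 1 cell of that library. The shares of their UMIs held by the cell with most were 51.2% for Dh31, 14.3% for CG15537, 84.7% for Vmat, 23.2% for AstC and 13.6% for AstA. AstA in CapaR cells was at 49.7 TP10K in ZT02_0307 and 50.6 in ZT06_0805, and at 2.46 and 4.45 in the ZT14 libraries. In ZT06_0805 a single cell held 754 of 1193 AstA UMIs, and AstA did not pass as a rhythm with at least 2 CapaR UMIs or with cells of at most 15000 UMIs. Dop1R1 in CapaR cells ran from 0.365 TP10K in ZT22_0624 to 9.96 in ZT14_1209 with a peak at ZT13.3, and stood at 9.18 TP10K in the TrpA1 cluster against 0.0868 in the Optix cluster. The TrpA1 cluster held between 5.88% (ZT06_0805) and 33.3% (ZT14_1209) of the CapaR cells of these libraries, and its part in the rhythm of Dop1R1 and AstA was not tested. Proc and CNMa also passed in CapaR cells, and all 41 CNMa UMIs there came from 1 cell.

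Among activity-regulated genes, sr had a swing of 0.85 in the Optix cluster (adjusted p = 0.303 by edgeR) and Hr38 of 0.35 (adjusted p = 0.907), and neither passed. The rhythm of sr in CapaR cells differed from that of the other clock cells with edgeR (adjusted p = 8.43e-04) but not with DESeq2 (0.58) or without the library block (1). Against the other clock cells sr (7.18 against 4.36 TP10K) and Hr38 (12.4 against 7.86 TP10K) did not reach 2-fold, and neither did CG14186 and CG17778. Of this list kay alone passed, lower by 1.03 on the log2 scale, and it missed the 2-fold limit or the test in 11 of 20 alternatives. Neuronal activity was blocked during dissection by drugs in the saline, per the study's methods.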

How the data were processed

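The members and the gene lists were chosen with earlier results of these data known. The authors deposited UMI counts per gene and cell, made with Cell Ranger and STAR on dm6. Their methods give a maximum of 15000 UMIs per cell, while their results section gives a higher one that the deposited cells keep to, and they remove doublets with Scrublet, and no doublet caller was run here. Strand use in the counting is not given in the sources used here. UMIs were summed per library and group, and sums of at least 5 cells entered the fits. edgeR 4.0.16 (quasi-likelihood, TMM, genes of at least 20 UMIs) tested CapaR cells against other clock cells with the library as a block, a 24 h cosine and sine without it, and the difference in rhythm with it, each with Benjamini-Hochberg adjustment. A call needed an adjusted p under 0.05, and 2-fold for the comparison of cells. DESeq2 1.42.0 was an alternative, as were other normalization, filters, minimums, thinning and leaving out each library. Nothing beyond collection dates says which flies the libraries came from, so p-values measure the spread between libraries. Cells were clustered with scikit-learn 1.9.0 for neighbors and igraph 0.11.9 for Leiden (2000 variable genes, 50 components, 3 neighbors per library, Leiden resolution 4), with 9 genes left out. Named genes were taken from the largest changes and rhythms past the thresholds at a mean of at least 1 TP10K, the smallest p for a difference in rhythm, and the fixed lists. Others named were chosen after their values were seen. Gene positions come from Ensembl release 115. Bulk libraries were not used here.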

Additional observations from a re-analysis of the deposited data

Results flagged for a closer look

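In the Optix cluster the library ZT14_0307 stood far above the others for Obp56d (41.5 TP10K, next 0.172), Obp56e (40.6, next 0) and EbpIII (17.48, next 0.194). Of its 32 cells a single one held all 1416 Obp56e UMIs. Likewise a single cell held 1444 of its 1445 Obp56d UMIs and a single cell all 609 EbpIII UMIs. CG31324 was at 12.5 TP10K in ZT18_0623, with the next library at 4.74. Dop1R2 in CapaR cells was at 9.14 TP10K in ZT22_0805, with the next library at 4.94. These are 5 of 49 groups examined. Chance alone marks about 1 in 20 of groups chosen without regard to their values. Obp56d, Obp56e, EbpIII and CG31324 were examined for their large fitted swings, so that rate does not apply to them.

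The rhythm of 190 of 9513 genes (2%) differed between CapaR cells and the other clock cells in the edgeR test of the difference. The count was 37 with DESeq2, 1 without the library block and 31 among genes with a UMI in every sum. Both groups were taken by clock transcripts, and the part of this choice in the differences was not tested.

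Outside the clock cells, a cluster of 266 cells, of which 10.9% met the clock minimum, held CapaR UMIs in 17.3% of its cells, against a median of 0% over all clusters. VGlut was at 59.6 and Mip at 82.0 TP10K there, Optix at 0 and Clk at 0.152 TP10K.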

How the results depend on the processing

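Of 1553 genes set apart, 237 passed among genes with a UMI in every sum (153 higher and 84 lower), 966 with at least 3 CapaR UMIs, 781 against cells nearest in total UMIs and 855 with thinned cells, and 1338 to 1489 when each library was left out. Of 166 rhythms in CapaR cells, the count was 293 without a filter, 110 with collection date as a replicate block, 72 and 89 with at least 2 and 3 CapaR UMIs, 90 with at most 15000 UMIs, 38 thinned, 50 outside the Optix cluster and 106 to 151 with a library left out (lowest without ZT14_0307). The 190 differences in rhythm became 37 with DESeq2, 1 without the replicate block, 31 with a UMI in every sum, 106 and 37 with at least 2 and 3 CapaR UMIs and 120 to 180 with a library left out (lowest without ZT22_0624). The 280 rhythms of the Optix cluster became 179 with at most 15000 UMIs, 346 with the date block and 191 to 264 with a library left out (lowest without ZT14_0307). The number of CapaR cells was 91 and 42 with at least 2 and 3 CapaR UMIs, 192 with a clock minimum of 10, 176 with at most 15000 UMIs and 1 when cells were thinned before the rule. Reversed log2 fold changes were TrpA1 -1.99 (at least 3 CapaR UMIs), Hug 0.34 (clock minimum of 10) and 0.35 (nearest total UMIs) and Arr2 0.89 (nearest total UMIs). The causes were not tested.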
